A study of Homo sapiens with 20 samples.

Results

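The 10 genes described here are 5 frizzled receptors (FZD1, FZD2, FZD5, FZD8 and FZD10) and 5 secreted WNT antagonists (DKK1, DKK2, SFRP1, SFRP2 and SFRP5). They were followed through a Poised Enhancer Capture Hi-C experiment, in which DNA fragments that carry poised enhancers serve as baits and the chromatin fragments ligated to them are read out as contacts. A contact belonged to a gene where its bait or its other end lay on the same chromosome as its partner and overlapped the gene body, widened by 1 kb on each side. By this rule 8 of the 10 genes had contacts, 255 of the 182303 contacts within chromosomes (0.140%). FZD5 had 1 bait and SFRP2 had no bait, and neither had a listed contact within its chromosome. The rule itself uses gene names and positions and no contact score.

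The study compared 10 conditions, each with 2 libraries that the authors scored together in 1 column. DE is definitive endoderm made from HNES1 cells at day 14, with Activin A, CHIR99021 (a GSK3 inhibitor that activates WNT signalling), FGF2, PI-103, BMP4 and heparin first and then Activin A, PI-103, FGF2, LDN193189 and heparin. NE is neuroectoderm made from the same day 14 cells over 10 days with A8301 and LDN193189, sorted as CD56+ and EpCAM- cells. H9 is a primed pluripotent line grown in mTeSR-E8 without feeders. The time course held HNES1 cells, a human embryonic stem cell line, in the naive state (on mouse feeders with PD0325901, LIF, Gö6983 and XAV939) and at 6 later time points (days 1, 3, 5, 7, 10, 14) on the way to the primed state in N2B27 with XAV939. XAV939 is a tankyrase inhibitor that dampens WNT signalling, and all 7 time points carried it, while the media given for H9, DE and NE did not list it. H9 and day 14 therefore differed in line and in medium at once. HNES1 and H9 are 1 line each, and no expression was measured, so the labelled cell types could not be checked against markers.

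WNT proteins signal by binding a frizzled receptor together with the co-receptor LRP5 or LRP6, which stabilises beta-catenin and turns on genes through TCF and LEF factors. DKK proteins block the pathway by binding LRP5 and LRP6, and secreted frizzled-related proteins (SFRPs) bind WNT ligands outside the cell through a domain like that of the frizzled receptors. In the embryo, WNT antagonists made by anterior endoderm help to form the head, and in pluripotent cells WNT activity favours mesendoderm over neuroectoderm.

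The score of a contact is a CHiCAGO score, in which a weighted p-value is put on a log scale, and a contact was called in a condition where it reached 5. The matrix listed only contacts that reached 5 in at least 1 condition, and 77.2% of all its scores were 0. Over the whole matrix the calls within chromosomes numbered 29563 in DE, 32672 in NE and 23764 in H9. They lay between 18272 and 22673 over the time course, with 20498 at day 14. As shares of all listed contacts within chromosomes, the calls made up 16.2% in DE, 17.9% in NE and 13.0% in H9. Over the time course the shares were 10.0% in naive cells and 10.1%, 12.4%, 11.7%, 10.2%, 10.3% and 11.2% from day 1 to day 14. Read depth was unknown. With 1 pooled score per condition there is no spread between replicates, so no difference between conditions was tested, and counts are set beside the same counts over all genes.

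Of the 6 genes with a known strand, 3 had their start site on a bait, DKK1, FZD1 and SFRP5. Their promoters are shown because these baits overlap them. The bait over the start held the whole printed promoter at DKK1 and FZD1. At SFRP5 the bait ended at the start site, so it held only the 50 bases after the start. RefSeq promoter sequences (GRCh38.p14, 250 bases before to 50 bases after the start) were matched for 6 of the 10 genes, and there was no match for FZD2, FZD10, DKK2 and SFRP1, whose strand and start site are not used here. Each is written 5′ to 3′ on the gene's strand, from chr10:52314031-52314330 on the plus strand for DKK1, chr7:91264183-91264482 on the plus strand for FZD1 and chr10:97771950-97772249 on the minus strand for SFRP5. Capitals mark CTTTGAA, a core of the TCF and LEF binding motif, in the DKK1 promoter. In the SFRP5 promoter they mark GATC, the site cut by DpnII, the enzyme used to make the libraries.
DKK1: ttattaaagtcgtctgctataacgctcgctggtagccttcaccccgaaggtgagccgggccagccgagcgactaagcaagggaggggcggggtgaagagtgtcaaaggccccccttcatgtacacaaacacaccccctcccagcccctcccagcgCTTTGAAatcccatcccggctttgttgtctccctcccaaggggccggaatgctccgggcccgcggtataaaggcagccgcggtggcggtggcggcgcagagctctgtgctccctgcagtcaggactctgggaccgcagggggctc
FZD1: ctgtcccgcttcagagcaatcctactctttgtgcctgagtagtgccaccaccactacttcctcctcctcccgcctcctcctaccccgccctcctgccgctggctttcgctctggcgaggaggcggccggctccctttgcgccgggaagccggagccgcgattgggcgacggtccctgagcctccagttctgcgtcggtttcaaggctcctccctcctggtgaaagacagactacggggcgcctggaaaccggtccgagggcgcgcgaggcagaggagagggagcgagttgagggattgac
SFRP5: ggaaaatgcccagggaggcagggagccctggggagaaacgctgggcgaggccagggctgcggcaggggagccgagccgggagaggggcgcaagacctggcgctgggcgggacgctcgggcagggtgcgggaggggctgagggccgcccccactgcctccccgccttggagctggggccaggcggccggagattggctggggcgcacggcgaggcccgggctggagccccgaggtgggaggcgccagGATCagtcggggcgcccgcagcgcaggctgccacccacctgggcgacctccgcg
CTTTGAA, its variant CTTTGAT and GATC were searched on both strands, and the marked sites do not overlap each other. CTTTGAA stood in 3.64% of 15767 promoters of the same length and, of the 6 matched genes, in that of DKK1 alone. CTTTGAT stood in 1.95% of the promoters and in that of no matched gene. Either form stood in 5.49% of the promoters. The DpnII site stood in 39.7% of all promoters. The only DpnII site in the 6 promoters began at base 97772000 of chromosome 10, next to the end of the SFRP5 bait at 97771999. The promoters held 20 CpG dinucleotides at DKK1, 25 at FZD1 and 28 at SFRP5, against a median of 22 over all promoters. These matches describe letters and not binding.

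Across all 10 genes the called contacts within chromosomes numbered 46 in DE, 50 in NE and 39 in H9, against 35 at day 14. Over the time course they numbered 28 in naive cells and 20, 31, 32, 23, 22 and 35 at days 1, 3, 5, 7, 10 and 14. Relative to day 14 the genes had 1.31 times as many calls in DE and 1.43 times as many in NE. Over all contacts within chromosomes the calls were 1.44 and 1.59 times those of day 14. The ratio of the 10 genes was thus below that of all contacts in both. DKK1 alone supplied 24 of the 46 calls in DE, and without it the count was 22 in DE, 31 in NE and 24 in H9, against 23 at day 14. With every column limited to its 18272 highest scores, the number called in naive cells, the 10 genes had 28 calls in DE, 30 in NE and 30 in H9, against 32 at day 14, so the direction turned. The plot of called contacts by gene shows this spread.

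**Figure D1:**
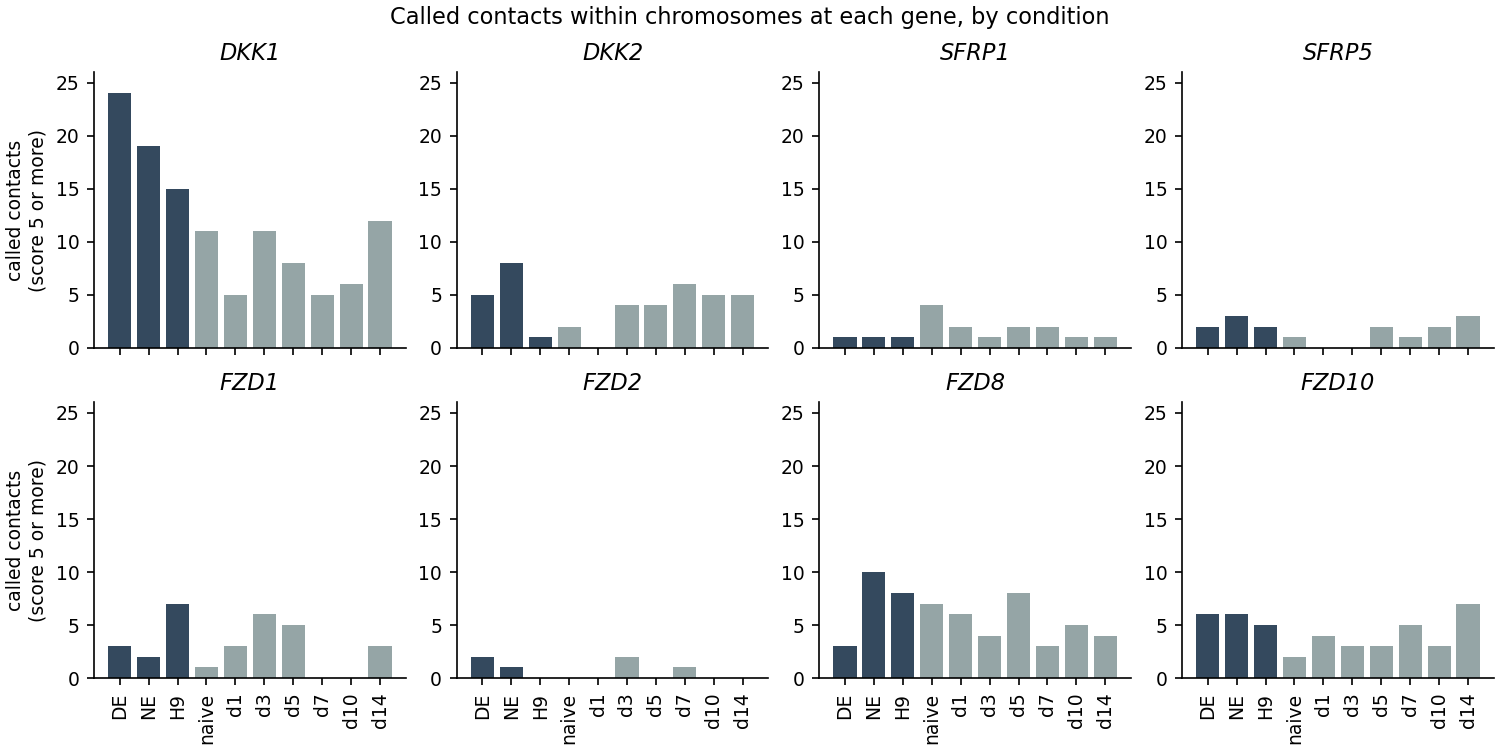
Number of contacts within chromosomes at a score of 5 or more (vertical axis) in each of the 10 conditions (horizontal axis; DE, NE and H9 in dark bars, naive to day 14 in grey) for the 8 genes with contacts. DKK1 has the tallest bars, 24 in DE and 19 in NE, and SFRP1 has 4 in naive cells and at most 2 elsewhere.

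DKK1, which blocks the LRP5 and LRP6 co-receptors and is itself a target gene of WNT signalling, had the most contacts of the 10 genes. It lies at chr10:52314281-52317657 on the plus strand and carried 6 baits, which ran from just before its start into the gene body, and 70 listed contacts, all from its own baits. Its calls numbered 24 in DE, 19 in NE and 15 in H9, against 12 at day 14. From naive cells to day 14 they numbered 11, 5, 11, 8, 5, 6 and 12. DE, NE and H9 stood above every time point, as they did over all contacts within chromosomes, and no order held over the days of the transition. With every column limited to its 18272 highest scores, DKK1 had 11 calls in H9 and 11 at day 14. Among 14188 genes with contacts, 143 had at least as many calls as DKK1 in DE, against 291 at day 14. Only 5909 of these genes had contacts from their own baits, as DKK1 did, so the ranks compare unlike genes.

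The share of DKK1 contacts called in DE was 34.3% (24 of 70, Wilson 95% interval 24.3% to 46.0%), against 17.1% at day 14 (12 of 70, 10.1% to 27.6%). Over all contacts the shares were 16.2% in DE and 11.2% at day 14. In NE 27.1% of the DKK1 contacts were called (18.1% to 38.5%), where all contacts gave 17.9%, and in H9 21.4% (13.4% to 32.4%), where all contacts gave 13.0%. In naive cells the share was 15.7% (9.01% to 26.0%), against 10.0% of all contacts. For the 185 contacts of the other 7 genes the share was 11.9% in DE (7.99% to 17.4%) and 16.8% in NE (12.1% to 22.8%), against 12.4% at day 14 (8.43% to 18.0%). These intervals cover counting error only, and contacts that share a bait or an other end are not independent. A contact was listed only where it was called in some condition, so a call in DE could itself bring a contact into the 70. The shares and intervals therefore describe listed contacts and are not rates over all possible contacts of the baits. The same selection applies to the shares of all contacts.

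**Figure D2:**
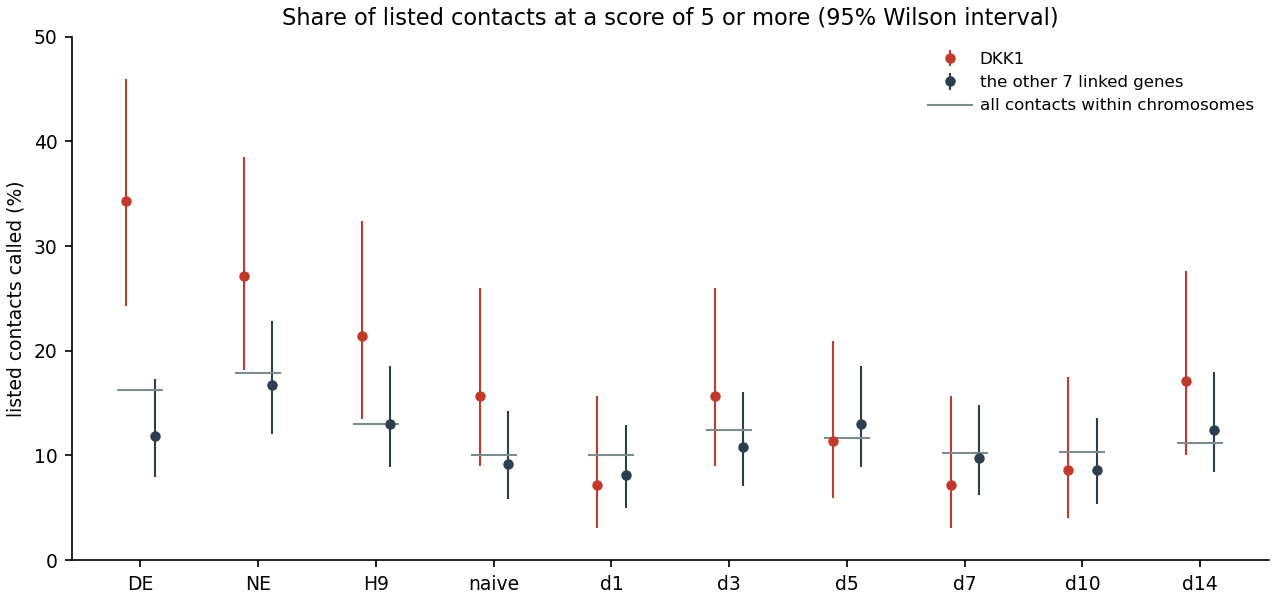
Percentage of listed contacts within chromosomes that reached a score of 5 (vertical axis) in each condition, for DKK1 (red) and the other 7 genes with contacts (dark), with 95% Wilson intervals; grey dashes mark all 182303 contacts. DKK1 stands at 34.3% in DE, where all contacts stand at 16.2%.

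Nearly all DKK1 contacts pointed the same way. Of the 70, 67 (95.7%) reached towards higher coordinates, downstream of the gene, at a median distance of 213 kb, and the other 3 ended in PRKG1, which encodes a cGMP-dependent protein kinase. Only 4 of the 70 other ends overlapped a protein-coding gene.

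Runs of touching other ends with at least 10 contacts gave 3 stretches, all downstream, by a rule set after the scores were seen, so they are a description. The nearest (chr10:52475252-52496393, 4 other ends centred 164 to 179 kb from the start, 16 contacts) was called 10 times in DE, 8 times in NE and 3 times in H9, against 5 times at day 14. In naive cells it was called 6 times, and at days 1 to 10 between 1 and 4 times. All 6 baits had a call there in NE and 5 of 6 in DE, against 4 of 6 at day 14. The farthest (chr10:52561052-52582699, 4 other ends centred 249 to 266 kb away, 14 contacts) had 5 calls in DE, 6 in NE and 4 in H9, against 2 at day 14 and 1 in naive cells. The stretch between them (chr10:52501694-52550170, 9 other ends, 14 contacts) had 4 calls in DE, 1 in NE and 3 in H9, against 2 at day 14.

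One other end in the nearest stretch, chr10:52485595-52490752, was listed as a contact of all 6 DKK1 baits. From the bait over the start site, 174 kb away, its score was 14.3 in DE, 5.55 in NE and 6.25 in H9, against 3.85 at day 14 and 2.36 in naive cells. The score in DE was the highest of any DKK1 contact in that condition. From the bait farthest before the start (chr10:52313080-52313438) the same other end scored 6.0 in DE, 11.0 in NE and 3.46 in H9, against 9.14 at day 14. Over the time course this contact scored 4.95, 3.44, 16.3, 10.6, 7.58, 0 and 9.14 from naive cells to day 14, so its values moved between adjacent days by as much as between DE and day 14. Baits close to each other did not rank the conditions alike at this other end.

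**Figure D3:**
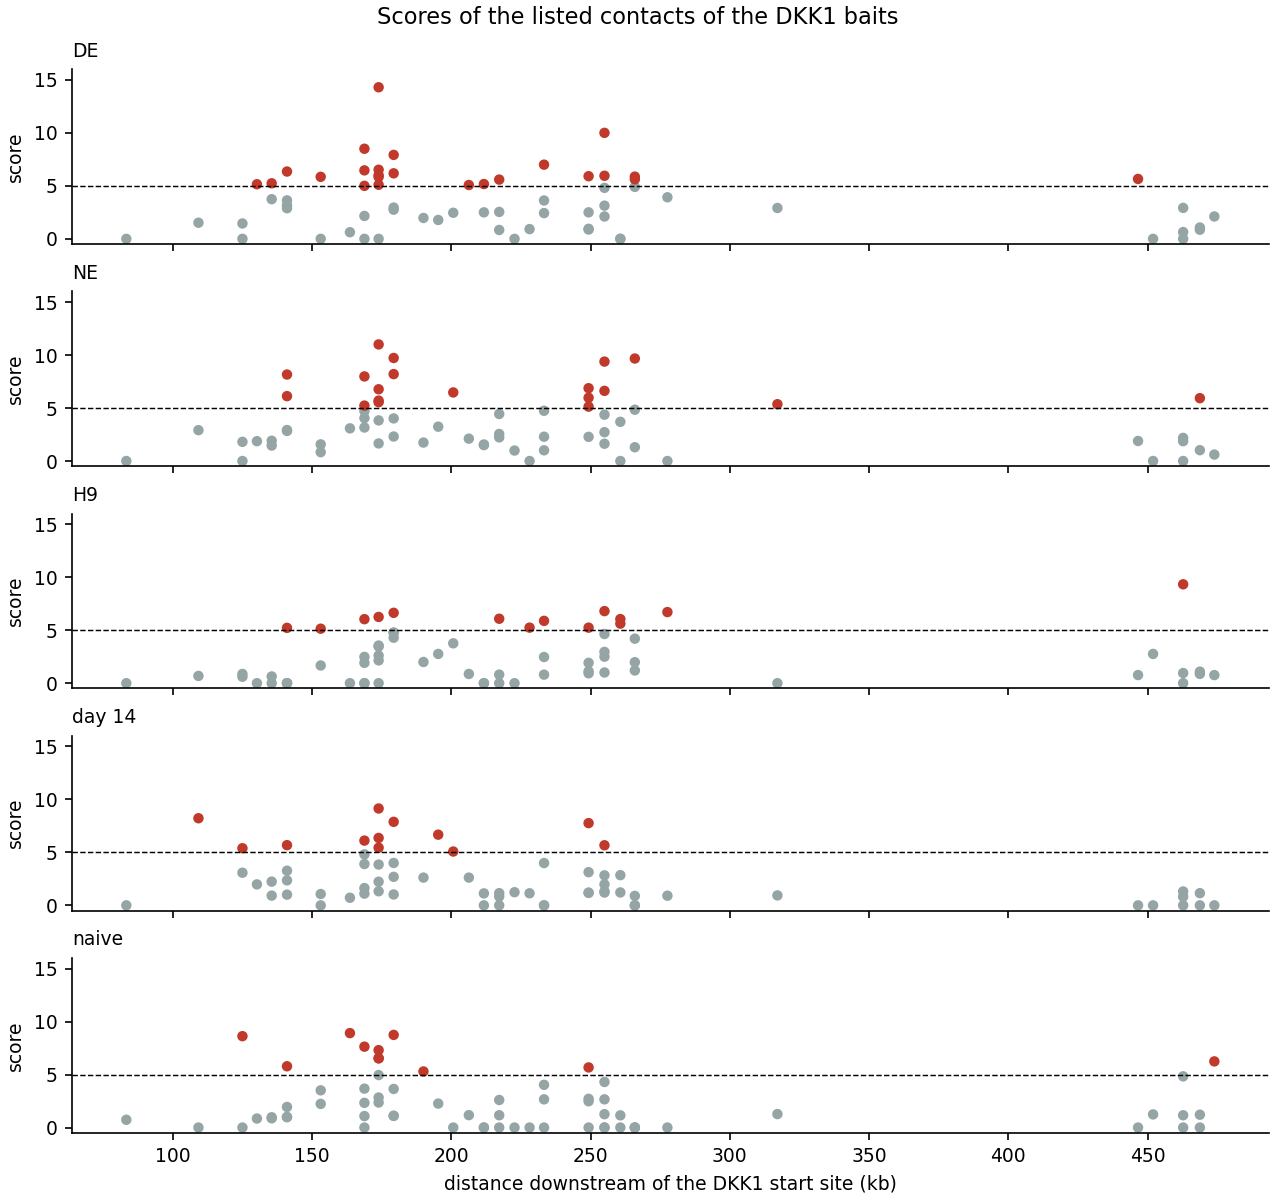
CHiCAGO score (vertical axis) of the 67 downstream contacts of the DKK1 baits against distance from the DKK1 start site in kb (horizontal axis), in DE, NE, H9, day 14 and naive cells; red points are at 5 or more (dashed line). Red points occur between 164 and 179 kb in each panel, and the highest, 14.3, is in DE.

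On small counts, the DKK1 contacts shared with day 14 made up larger shares than over all contacts in DE and NE, and none were shared in H9. DE and day 14 shared 3 DKK1 contacts (12.5% of 24 in DE and 25% of 12 at day 14), where all contacts gave 6.96% and 10.0%. NE and day 14 shared 5 (26.3% of 19 and 41.7% of 12), where all contacts gave 7.04% and 11.2%. H9 and day 14 shared none (of 15 and 12), where all contacts gave 7.42% and 8.60%. A contact counted as shared only with the same bait and the same other end. Over distinct DKK1 other ends, whichever DKK1 bait reached them, H9 (14) and day 14 (10) shared 6. By the same count DE (15) and day 14 shared 6, and NE (10) and day 14 shared 7. DKK1 had 11 of 70 contacts called in 3 or more of the 10 conditions (15.7%, Wilson 95% interval 9.01% to 26.0%), against 4.62% of all contacts. It supplied 11 of the 14 such contacts among the 10 genes. FZD8, FZD10 and SFRP5 had 1 each. Several of the 11 at DKK1 were the same other end, chr10:52485595-52490752, reached from neighbouring baits. The 11 are therefore not independent, and the interval covers counting error only.

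DKK2, a second inhibitor that binds the same co-receptors, had 40 contacts, 38 of them from 7 baits near one end of its gene (chr4:106921802-107036313). The other 2 came from baits outside the gene, and 1 of these repeats a pair of baits already listed from the DKK2 side. Its calls numbered 5 in DE, 8 in NE and 1 in H9, against 5 at day 14. From naive cells to day 14 they numbered 2, 0, 4, 4, 6, 5 and 5. All 40 contacts were called in 1 condition only, where 85.8% of all contacts were. The highest scores were 6.62 in DE, 7.38 in NE and 7.39 in H9, against 5.85 at day 14 and 5.77 in naive cells, each on a different other end. Of the 38 bait-side contacts, 31 reached towards higher coordinates, away from the gene body.

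SFRP1, an SFRP studied in neural and eye development in vertebrates, had 15 contacts from 2 of its 3 baits (chr8:41261962-41309473). It had 1 call each in DE, NE and H9, and 1 at day 14. Naive cells had 4 calls, and days 1, 3, 5, 7 and 10 had 2, 1, 2, 2 and 1. SFRP1 was the only one of the 8 genes with its highest count in naive cells, on counts this small. Nothing of SFRP2, which belongs to the same family, could be followed within its chromosome, and it was listed in 2 contacts between chromosomes.

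SFRP5, an SFRP known in the mouse from the anterior endoderm and foregut, had 12 contacts, all from the bait that ends at its start site (chr10:97766751-97771999, minus strand). Its calls numbered 2 in DE, 3 in NE and 2 in H9, against 3 at day 14, and from naive cells to day 14 they numbered 1, 0, 0, 2, 1, 2 and 3. Of the 12 contacts 11 reached upstream, and 7 ended in a protein-coding gene, which was GOLGA7B or CRTAC1 in all but 1. One other end in GOLGA7B and CRTAC1, 103 kb upstream (chr10:97871238-97877530), was called in 3 conditions. It scored 3.65 in DE, 6.17 in NE and 2.25 in H9, against 2.43 at day 14, and reached 5.11 at day 5 and 5.39 at day 10.

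Among the receptors FZD8, which is expressed in the anterior neural plate of vertebrate embryos, had the most contacts, 49 from 5 of its 6 baits (chr10:35638247-35642296, minus strand). Its calls numbered 3 in DE, 10 in NE and 8 in H9, against 4 at day 14. From naive cells to day 14 they numbered 7, 6, 4, 8, 3, 5 and 4. DE and NE lay on opposite sides of day 14. FZD8 reached upstream in 47 of 49 contacts (95.9%), at a median distance of 279 kb, and all 5 of the contacts over 1 Mb among the 10 genes were its own. Only 1 other end overlapped a protein-coding gene, CCNY, which encodes cyclin Y.

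The highest FZD8 scores lay on different other ends from condition to condition. The highest in naive cells was 11.5, on chr10:35914225-35919344, 279 kb from its bait, where DE had 3.93, NE had 4.86, H9 had 2.95 and day 14 had 4.81. A neighbouring bait reached the same other end at 9.40 on day 1, 7.84 on day 3 and 5.57 in NE, the only FZD8 contact called in 3 conditions. The highest scores were 6.06 in DE, 137 kb away, and 6.25 in NE and 9.90 in H9, on other ends over 1 Mb away, against 7.21 at day 14 in CCNY.

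FZD10, a receptor found in the dorsal neural tube of vertebrate embryos, had 34 contacts (chr12:130162464-130165740), 29 on the bait side and 7 on the other-end side, with 2 counted on both. Its calls numbered 6 in DE, 6 in NE and 5 in H9, against 7 at day 14. From naive cells to day 14 they numbered 2, 4, 3, 3, 5, 3 and 7, so day 14 held the most. The other-end contacts all fell on a single fragment just beyond the gene (chr12:130166642-130172465), which the widening by 1 kb brought in. The FZD10 bait at chr12:130165582-130165874 contacted this fragment at 3.8 kb, with scores of 4.29 in DE, 6.59 in NE and 5.28 in H9, against 5.18 at day 14 and 4.11 in naive cells. The highest FZD10 score in DE, 10.4, was on PIWIL1, a germline gene of the piRNA pathway 177 kb away, where day 14 had 1.67.

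FZD1, a receptor expressed in many tissues, had 29 contacts from 5 baits (chr7:91264433-91271326, plus strand). Its calls numbered 3 in DE, 2 in NE and 7 in H9, against 3 at day 14. From naive cells to day 14 they numbered 1, 3, 6, 5, 0, 0 and 3. Days 7 and 10 had no call among 29 listed contacts (Wilson 95% upper bound 11.7%). This bound includes the shares of all listed contacts on those days, 10.2% and 10.3%. The 29 were listed because each was called in some other condition, so the bound describes listed contacts only. Of the 29 contacts 26 reached downstream, at a median distance of 340 kb, and the highest score was 11.5 in DE, 399 kb away, where H9 had 5.38 and day 14 had 1.46. The bait over the FZD1 start site gave 1 contact, called in naive cells.

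FZD2 and FZD5 gave little to follow. FZD2 (chr17:44557484-44561262) had 6 contacts, with 2 calls in DE, 1 in NE and none in H9, against none at day 14; earlier it had 2 calls at day 3 and 1 at day 7. FZD5 (chr2:207762598-207769906), a receptor needed for eye development in vertebrates, appeared in 7 contacts between chromosomes.

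Of the 7 genes with at least 10 bait-side contacts, 5 (DKK1, DKK2, SFRP5, FZD1 and FZD8) had at least 80% of them on 1 side, where 39.3% of 3385 such genes did. FZD10 had 58.6% and SFRP1 had 60.0% on the larger side, below the median of 73.5% over those genes. FZD2 had too few contacts to be placed, and the count of 5 was not tested. Of the 246 bait-side contacts 28 (11.4%) ended in a protein-coding gene, against 53.1% of all contacts, and the median distance of 228 kb equalled that of all contacts (228 kb, interquartile range 134 to 359 kb). Contacts of 1 gene share its surroundings, so these shares describe 8 places in the genome.

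**Figure D4:**
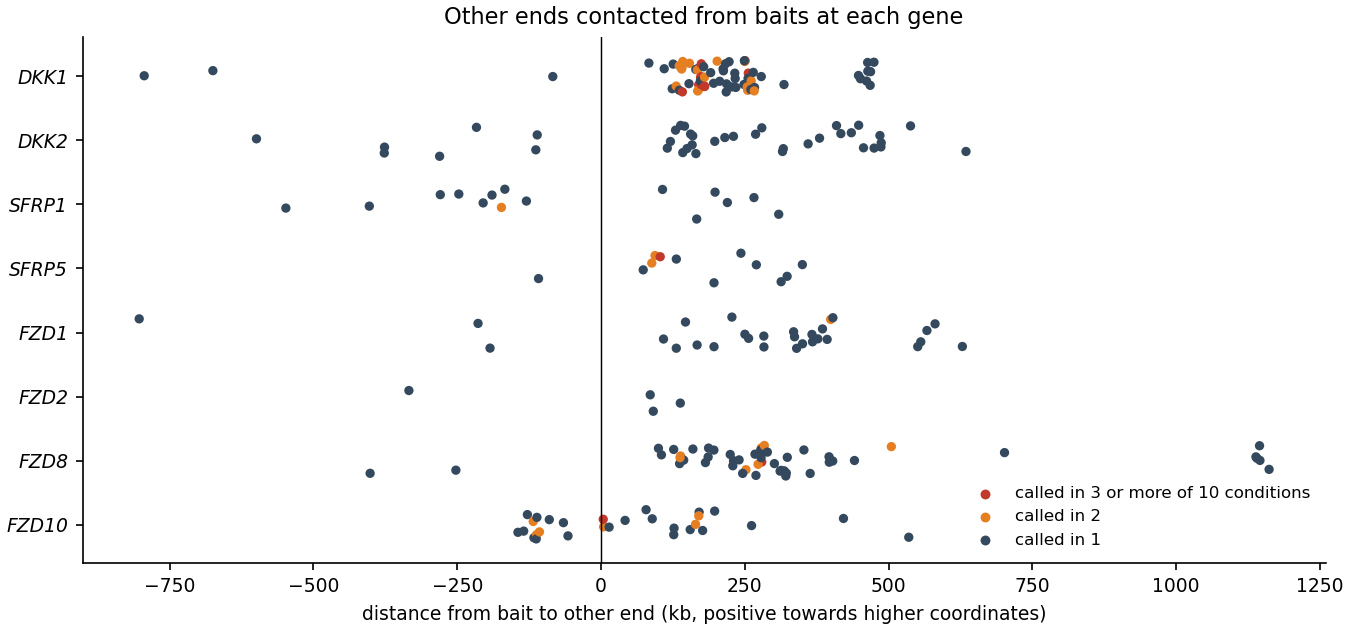
Distance from bait to other end in kb (horizontal axis, positive towards higher coordinates) for the 246 bait-side contacts of the 8 genes (rows; points are spread vertically for legibility), coloured by the number of conditions in which each was called. DKK1 has 67 of 70 and FZD8 47 of 49 points on the positive side, and the DKK1 row holds 11 of the 14 contacts called in 3 or more conditions.

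For day 14 against naive cells, which asks what the transition to the primed state brings, 5 of the 8 genes had more calls (DKK1, DKK2, SFRP5, FZD1 and FZD10), beside 29.0% of all 14188 genes. All 8 genes had contacts from their own baits, where only 5909 of the 14188 did. At day 14 the 10 genes had a mean of 3.5 calls, against 1.59 over all genes. The shares of all genes given here and below therefore come from unlike genes. Fewer calls were found at 2 genes (SFRP1 and FZD8), beside 25.5% of all genes. FZD10, with 7 against 2, was the only one with at least 5 more, as were 2.60% of all genes, and none had at least 5 fewer, where 1.34% of all genes did. The FZD10 difference was 4 with equal numbers of top contacts per column (6 at day 14, against 2 in naive cells) and 0 at a threshold of 10. For H9 against day 14, 3 genes had more (DKK1, FZD1 and FZD8; 31.5% of all genes) and 3 had fewer (DKK2, SFRP5 and FZD10; 24.9% of all genes), and none moved by 5 or more, where 3.08% of all genes had at least 5 more and 1.44% at least 5 fewer.

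For DE against day 14, 2 genes had more calls (DKK1 and FZD2), beside 37.2% of all genes, and 3 had fewer (FZD8, SFRP5 and FZD10), beside 21.4%. The 2 FZD2 calls in DE scored 5.01 and 5.04, close to the threshold. With equal numbers of top contacts per column FZD2 had 0 calls in DE and 0 at day 14. DKK1, with 24 against 12, was the only one with at least 5 more, as were 5.51% of all genes, and none had at least 5 fewer (0.930% of all genes). For NE against day 14, 4 genes had more (DKK1, DKK2, FZD8 and FZD2), beside 41.6%, and 2 had fewer (FZD1 and FZD10), beside 18.9%. At least 5 more were found at DKK1 (19 against 12) and FZD8 (10 against 4), as at 7.01% of all genes, and none had at least 5 fewer (0.726% of all genes). Over distinct other ends DKK1 had 10 in NE and 15 in DE, against 10 at day 14. With equal numbers of top contacts per column FZD8 had 3 calls in NE, against 4 at day 14. A gene with many listed contacts can move by 5 more easily than the average gene.

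DE and NE, the derivatives of the same day 14 cells, differed at 6 of the 8 genes. DE had more calls at 3 (DKK1, FZD1 and FZD2), beside 26.9% of all genes, and fewer at 3 (DKK2, FZD8 and SFRP5), beside 34.1%. At least 5 more in DE was found for DKK1, 24 against 19 in NE (1.78% of all genes), and at least 5 fewer for FZD8, 3 against 10 in NE (3.43% of all genes). With every column limited to its 18272 highest scores, DKK1 had 18 calls in DE and 14 in NE, against 11 at day 14. The DE minus NE difference at DKK1, which lay at the limit of 5, was then 4, and it was 1 at a threshold of 3, 1 at a threshold of 10 and 0 with no margin around the gene. Under the same limit FZD8 had 2 in DE and 3 in NE, against 4 at day 14, and FZD2 had 0 in DE and 1 in NE.

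Between chromosomes the 10 genes had 224 calls in DE, 201 in NE and 31 in H9, against 35 at day 14 and 29 in naive cells. DE thus had 6.40 times and NE 5.74 times the calls of day 14, where all contacts between chromosomes gave 5.97 and 4.94 times. DKK1 had 58 in DE and 55 in NE, against 14 at day 14, and FZD8 had 31 in DE and 22 in NE, against 1 at day 14. The larger number between chromosomes in DE and NE was common to the matrix, and its part in the counts within chromosomes was not tested.

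Of 59 other WNT pathway genes 56 had contacts within chromosomes. For DE against day 14, 37 of the 56 had more calls and 9 had fewer, beside 37.2% and 21.4% of all genes. The median difference was 2, against 0 over all genes. For NE against day 14, 39 had more and 11 had fewer (median 2, against 0), beside 41.6% and 18.9%. For H9 against day 14, 25 had more and 16 had fewer, beside 31.5% and 24.9%. For day 14 against naive cells the counts were 21 and 17, beside 29.0% and 25.5%. For DE against NE they were 27 and 23, beside 26.9% and 34.1%. The medians for H9 against day 14, day 14 against naive cells and DE against NE were 0. At day 14 the 56 genes had a mean of 3.25 calls, against 1.59 over all genes, so the shares and medians compare unlike genes. All of these comparisons except DE against NE share the day 14 column. FZD7, another frizzled receptor, had 37 calls in DE, 23 in NE and 21 in H9, against 10 at day 14. LEF1, a transcription factor of the pathway, had 22 in DE, 34 in NE and 5 in H9, against 12 at day 14, and WIF1, a secreted WNT inhibitor, had 16 in DE and 27 in NE, against 11 at day 14. WNT3, a ligand of gastrulation, had 16 in DE and 11 in NE, against 1 at day 14. TCF7L1, a repressor of the pathway, had 20 in DE, 15 in NE and 8 in H9, against 9 at day 14. It had 23 in naive cells. The other largest changes from naive cells to day 14 were gains. ROR2 had 10 calls at day 14, against 1 in naive cells, and WNT6 and WNT10A each had 9, against 2.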

How the data were processed

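The data are Poised Enhancer Capture Hi-C libraries, 20 in all, from 10 conditions. The deposited matrix gave 1 CHiCAGO score per contact and condition, per the labels, which assign both libraries of a condition to 1 column, and a distance in bp. Coordinates were GRCh38, per the submitters' processing notes; the aligner, caller version, fragment binning and filtering are not given in the sources used here. A median bait was 622 bp and a median other end 5256 bp. Read depth was unknown.

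Genes were taken from RefSeq protein-coding annotation (19961 genes, 95 readthrough genes left out), and 14188 had a contact within chromosomes. Contacts at a score of 5 or more were counted per gene and condition with Python 3.11.15, pandas 2.3.3, numpy 2.4.6, scipy 1.17.1 and matplotlib 3.10.9. On simulated data, 200 of 200 genes were counted exactly. Shares have Wilson 95% intervals. No test between conditions was possible.

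For each gene the highest-scoring contact per main condition and the contacts called in 3 or more conditions were eligible to be named, with at most 4 other WNT genes per comparison. DKK1 stretches were runs of touching other ends with at least 10 contacts. The genes and lists were chosen with earlier results of these data known. Alternatives changed the score threshold, gene margin, number of contacts per column, contact side, distance and contacts between chromosomes; 2 more were added after seeing the data.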

Additional observations from a re-analysis of the deposited data

Results flagged for a closer look

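FZD8 was picked out because its calls moved in opposite directions in the derivatives of day 14 cells. DE minus day 14 was -1 (3 calls in DE, against 4 at day 14) and NE minus day 14 was 6 (10 calls in NE, against 4 at day 14). The difference between these changes was not tested, since each condition had 1 pooled score column.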

How the results depend on the processing

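No paired analysis was possible because each column pools both libraries of its condition, and for the same reason no replicate could be left out. Summed over the 10 genes, the main differences in calls were 7 for day 14 minus naive, 4 for H9 minus day 14, 11 for DE minus day 14, 15 for NE minus day 14 and -4 for DE minus NE. In that order of comparisons, the limit of equal numbers of contacts per column gave 4, -2, -4, -2 and -2, so all 3 differences from day 14 changed sign. A threshold of 10 gave -1, 0, 4, 1 and 3. No margin around the gene gave 15, 0 and 1 for the first 3 comparisons and -9 for DE minus NE. The other-end side alone gave 2, 1, 0, 0 and 0, and adding contacts between chromosomes gave 13, 0, 200, 181 and 19. A threshold of 3, which sees only contacts that reached 5 somewhere, gave 12 for H9, 29 for DE and 33 for NE against day 14, and a margin of 10 kb gave 13, 22 and 26 for the same comparisons. Contacts up to 1 Mb gave 2 for H9 minus day 14 and -2 for DE minus NE. Of the alternatives added after seeing the data, distinct other ends gave 3 for DE and 6 for NE against day 14, and leaving out DKK1 gave 1 for H9, -1 for DE and 8 for NE against day 14 and -9 for DE minus NE. The other 22 of these values stayed within 1.5 times the main count.

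For DKK1, DE minus day 14 was 12, and it was 7 with equal numbers per column, 5 over distinct other ends, 4 with no margin and 2 at a threshold of 10. NE minus day 14 at DKK1 was 7, and it was 3 with equal numbers and 0 over distinct other ends. FZD8 changed sign in NE minus day 14 with equal numbers (-1) and in DE minus NE with contacts between chromosomes (2). The cause was not tested in any of these. Unknown depth and 1 score per condition limit every difference given.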

Other observations

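The genes whose calls followed those of a member most closely over the 10 conditions were found among 3322 genes with at least 20 calls. For DKK1 they were AZI2 (Pearson r 0.952), LOC124904970 (0.951) and HSPA12A (0.945). AZI2 had 17 calls in DE, 13 in NE and 12 in H9, against 3 at day 14. For FZD8 they were CCDC3 (0.935), PNKD (0.893) and SSBP3 (0.874), for FZD10 EFCC1 (0.910), ALOXE3 (0.907) and CERS6 (0.907), for DKK2 EGFLAM (0.926), AVPR1B (0.911) and CYP26C1 (0.908), and for FZD1 CDX2 (0.874), ELOVL2 (0.869) and PAX3 (0.868). These are descriptions over 10 points that share the totals of each column, and they were the highest of many genes compared.

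SFRP2 and FZD5, which had no contact within chromosomes, had few between them. FZD5 had 4 calls between chromosomes in DE and 2 in NE, and none at day 14. SFRP2 had none in DE and 1 in NE, and none at day 14.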
